A study of Mus musculus with 8 samples.

Results

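Blood plasma proteins of complement and coagulation are made mainly by hepatocytes, and the transcripts of 41 mouse genes that encode them were described here across 8 liver RNA-seq libraries. The genes were chosen by name as complement components, clotting factors and their inhibitors known to be made by liver. Of the 41 genes, 40 were matched by Ensembl identifier to a row of the 38283 deposited, and all 40 were among the 11634 genes tested. Plasma prekallikrein, Klkb1, had no row matched to its identifier and was not analysed here.

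The libraries came from livers of C57BL/6 mice that carried loxP sites around exons 4 and 5 of Rora, the gene of the nuclear receptor RORα. RORα f/f mice carried these alleles alone, and RORα LKO mice (Alb-cre;RORa f/f in the labels) also carried Cre under the albumin promoter, which acts in hepatocytes and leaves the other cells of the liver with the floxed gene. Male mice were fed a control diet (CD) or a high-fat diet (HFD) with 60% of its calories from fat for 10 weeks from 8 weeks of age. Each of the 4 groups had 2 libraries, made from the livers of 2 mice each, so that the spread between libraries is between pools and not between single animals.

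Complement is a cascade of plasma proteins. Recognition by antibody-bound C1 or by mannose-binding lectins, or the spontaneous turnover of C3, leads to convertases that cleave C3 and then C5, after which C5b, C6, C7, C8 and C9 assemble into a pore in the target membrane. Coagulation is a cascade of serine proteases that ends with thrombin cutting fibrinogen into fibrin, and it is restrained by antithrombin, protein C and protein S and reversed by plasmin. Many of these proteins also belong to the acute phase response, in which hepatocytes alter their output of plasma proteins during inflammation.

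The deposited values are FPKM, in which fragment numbers are divided by transcript length and by the fragments mapped, so levels can be compared between genes but the depth behind a value is not given by the table. Rora itself was listed at 8.85 and 8.59 FPKM in f/f-labelled livers on the CD, 7.96 and 8.18 in LKO-labelled livers on the CD, 7.56 and 7.86 in f/f-labelled livers on the HFD and 7.30 and 8.02 in LKO-labelled livers on the HFD. The ranges of the genotype labels overlapped on the HFD, and because the value covers the whole gene while only 2 exons are removed, it does not settle the genotype, so libraries are called by their labels. The library f/f CD replicate 2 stood apart, with 18.7% of its summed FPKM in 1 gene without a symbol, against at most 9.28% in the top gene of any other library. Alb, which encodes albumin, was listed at 0 in 4 of the 8 libraries, so a 0 in this table can be a failed estimate. These were LKO CD replicate 1, both LKO HFD replicates and f/f HFD replicate 2, so the zeros were more frequent on the HFD. The other 7 hepatocyte markers summed to 15550 to 17440 FPKM in a library.

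The 40 genes were among the abundant transcripts of liver. Their summed FPKM was 17687 to 19751 in the 4 CD libraries and 13925 to 17102 in the 4 HFD libraries. As a share of all FPKM in a library it was 1.80% to 2.67% on the CD and 1.90% to 2.26% on the HFD, with overlap. By mean FPKM, 4 genes were above 1000 and 33 above 100, and 27 were among the 500 most abundant genes of the table. The 4 above 1000 were Fgb (2404), C3 (2089), Fgg (1947) and Fga (1294), that is, the 3 fibrinogen chains and the central complement component. Another 6 genes lay between 10 and 100 FPKM: C6, F7, F11, C2, Masp1 and Pros1. The lowest was Cfd, complement factor D, a protease made mainly by adipocytes, at 0.182 to 5.45 FPKM.

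**Figure D1:**
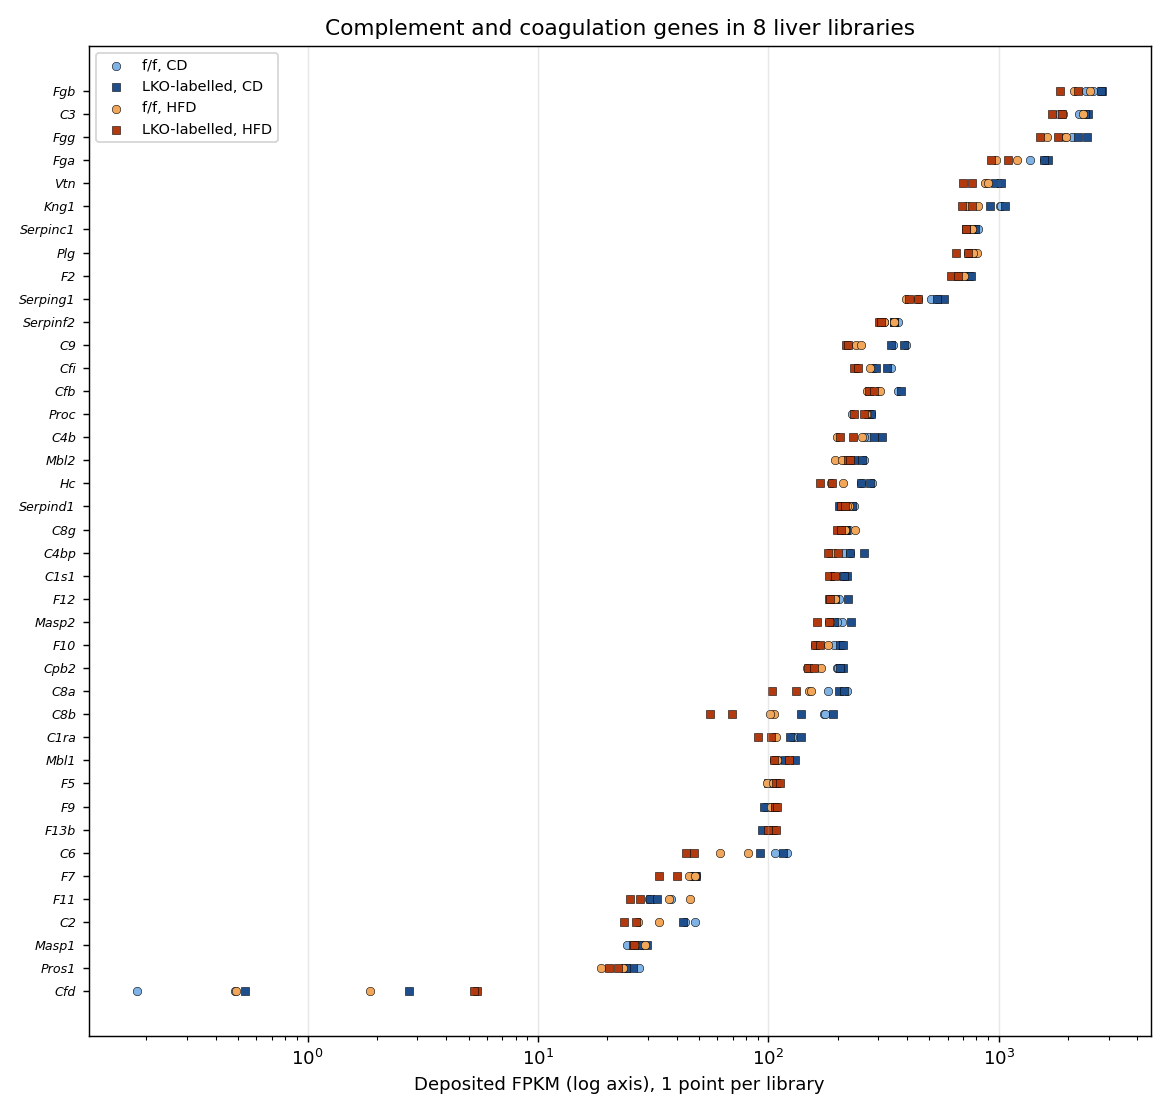
Deposited FPKM of the 40 genes on a log axis, genes ordered by mean, 1 point per library and 2 libraries per group, with circles for f/f-labelled and squares for LKO-labelled libraries. The fibrinogen genes and C3 lie above 1000 FPKM by their means and Cfd lies between 0.182 and 5.45. C2 and Cfb have 1 library listed at 0 that a log axis cannot show.

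The genes differed in how steady they were. The coefficient of variation over the 8 libraries was under 10% for 15 of the 40 genes, among them Serpinc1 (antithrombin, 4.14%), F13b (the carrier subunit of factor XIII, 4.14%), F5 (4.68%) and C8g (5.54%). It was highest for the low gene Cfd (102%) and for C2 (50.1%) and Cfb (43.0%), which have a listed 0. Next came C8b (40.5%), C6 (36.1%), C9 (24.9%) and C8a (24.4%), which belong to the terminal pathway. Because the 8 libraries are of all groups, the coefficient includes differences between diets and genotype labels.

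Apart from the low Cfd and from C2 and Cfb, which were listed at 0 in 1 library, the largest diet differences among the 40 were those of 4 terminal pathway genes, C8b, C6, C8a and C9. Hc encodes C5, the component whose cleavage starts the pore. C6 and C9 are single-chain proteins, and C8 is built from the products of 3 genes, C8a, C8b and C8g. C8a and C8b are neighbours 11130 bases apart on opposite strands of chromosome 4, whereas C8g is on chromosome 2. Because 5 of these 6 genes were lower on the HFD together, their promoters are shown, taken as the 250 bases before the RefSeq transcript start on GRCm38.p6 and written on the gene's own strand from 5′ to 3′, with matches to the searched motifs in capitals. The positions are chr2:35061413-35061662, minus strand for Hc, chr15:4726960-4727209, plus strand for C6, chr4:104876399-104876648, minus strand for C8a, chr4:104766067-104766316, plus strand for C8b and chr15:6445096-6445345, plus strand for C9.
Hc: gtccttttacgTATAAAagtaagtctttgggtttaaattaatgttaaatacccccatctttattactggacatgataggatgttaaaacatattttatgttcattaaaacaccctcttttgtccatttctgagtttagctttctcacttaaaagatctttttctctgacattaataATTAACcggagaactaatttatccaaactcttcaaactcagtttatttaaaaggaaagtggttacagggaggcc
C6: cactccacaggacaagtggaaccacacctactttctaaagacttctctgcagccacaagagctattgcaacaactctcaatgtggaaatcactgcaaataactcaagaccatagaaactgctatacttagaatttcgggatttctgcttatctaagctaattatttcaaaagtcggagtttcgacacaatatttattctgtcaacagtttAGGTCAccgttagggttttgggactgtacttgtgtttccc
C8a: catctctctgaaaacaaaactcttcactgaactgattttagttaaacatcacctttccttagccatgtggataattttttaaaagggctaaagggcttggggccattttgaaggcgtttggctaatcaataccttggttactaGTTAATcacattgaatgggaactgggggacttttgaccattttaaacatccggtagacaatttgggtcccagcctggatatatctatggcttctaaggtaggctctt
C8b: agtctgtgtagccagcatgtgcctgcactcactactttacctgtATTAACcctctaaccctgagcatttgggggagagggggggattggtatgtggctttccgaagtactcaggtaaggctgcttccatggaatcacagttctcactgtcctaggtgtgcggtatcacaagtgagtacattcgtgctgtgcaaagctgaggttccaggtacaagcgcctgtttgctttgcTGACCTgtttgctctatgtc
C9: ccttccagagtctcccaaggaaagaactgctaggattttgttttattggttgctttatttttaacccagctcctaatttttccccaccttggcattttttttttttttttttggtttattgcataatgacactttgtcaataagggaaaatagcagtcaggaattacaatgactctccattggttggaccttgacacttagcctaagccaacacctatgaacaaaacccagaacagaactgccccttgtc

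The motifs searched on both strands were AGGTCA and GGGTCA, core letters bound by RORα and many other nuclear receptors, GTTAAT, core letters of the site of the hepatocyte factor HNF1, TATAAA, the TATA box, and TTGCGCAA, a palindrome bound by C/EBP factors. Hc held GTTAAT on the minus strand, read there as ATTAAC, 69 to 74 bases before the start, and TATAAA 234 to 239 bases before it. C6 held AGGTCA 35 to 40 bases before the start. C8a held GTTAAT at 102 to 107 bases. C8b held AGGTCA on the minus strand, read as TGACCT, at 15 to 20 bases and GTTAAT on the minus strand at 201 to 206 bases. No match of one motif overlapped another in these windows, and C9 had no match, which says only that these letters are not in its window.
Of the 40 genes, 31 had a promoter in the RefSeq table. AGGTCA was in 10 of the 31 (32.3%) against 14.0% of 32851 promoters of the same length, and GTTAAT in 9 (29.0%) against 6.43%. GGGTCA was in 2 (6.45%) against 11.6%, TATAAA in 2 (6.45%) against 12.4%, and TTGCGCAA in 0 against 0.164%. The 31 were counted as genes, with a match in any promoter listed for the gene, and the 32851 as single promoters. The 2 shares are therefore not the same measure. The matches are of letters and not sites shown to be bound.

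The diets were compared over both genotype labels, 4 HFD against 4 CD libraries, to ask which genes differed between the HFD and the CD. Of the 40 genes, 9 fell on the HFD and 0 rose, by limma on quantile-normalized log2(FPKM + 1) with Benjamini-Hochberg adjustment over all genes tested. The 9 were 22.5% of the 40, beside 4.86% of all genes tested that were called lower and 5.04% called higher. They were C8b, C6, C8a, C9 and Hc of the terminal pathway, the classical-pathway protease C1ra, the C1 inhibitor gene Serping1, the fibrinogen chain Fga and the fibrinolysis inhibitor Cpb2. At an unadjusted p under 0.05, 17 of the 40 were lower, beside 13% of all genes, and 2 higher, F9 and Cfd, beside 14.9%. On the normalized scale 15 of the 40 had all 4 HFD libraries below all 4 CD libraries, beside 8.11% of all genes, and 1, F13b, had them all above, beside 8.61%. In bulk liver, fewer cells of a type and less RNA per cell cannot be told apart.

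Within the terminal pathway, C8b, which encodes the beta chain of C8, had the largest fall. It was measured at 175 and 177 FPKM in f/f-labelled livers on the CD, 139 and 191 in LKO-labelled livers on the CD, 106 and 102 in f/f-labelled livers on the HFD and 55.8 and 69.8 in LKO-labelled livers on the HFD. All 4 HFD libraries were below all 4 CD libraries, with no overlap. The log2 fold change averaged over the genotype labels was -0.99 (SE 0.11, adjusted p = 0.0061, limma), a ratio of 0.502.

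C6, the component that binds C5b, was measured at 121 and 107 FPKM in f/f-labelled livers on the CD, 91.7 and 116 in LKO-labelled livers on the CD, 82.1 and 61.6 in f/f-labelled livers on the HFD and 43.97 and 47.6 in LKO-labelled livers on the HFD. Both HFD groups lay below the CD libraries, and the LKO-labelled HFD libraries were the lowest. The log2 fold change was -0.85 (SE 0.12, adjusted p = 0.011, limma).

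C8a, which encodes the alpha chain of C8, was measured at 219 and 182 FPKM in f/f-labelled livers on the CD, 203 and 212 in LKO-labelled livers on the CD, 150.0 and 153 in f/f-labelled livers on the HFD and 104 and 132 in LKO-labelled livers on the HFD. The diets did not overlap, although the gap between 182 to 219 FPKM on the CD and 104 to 153 on the HFD was narrower than for C8b. Its log2 fold change was -0.53 (SE 0.082, adjusted p = 0.014, limma).

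C9, the subunit that forms most of the pore, was measured at 394 and 347 FPKM in f/f-labelled livers on the CD, 387 and 341 in LKO-labelled livers on the CD, 241 and 252 in f/f-labelled livers on the HFD and 217 and 222 in LKO-labelled livers on the HFD. Its libraries fell into 2 sets without overlap, and replicates of the HFD groups lay close together. The log2 fold change was -0.52 (SE 0.063, adjusted p = 0.008, limma). Hc was measured at 282 and 252 FPKM in f/f-labelled livers on the CD, 277 and 252 in LKO-labelled livers on the CD, 187 and 212 in f/f-labelled livers on the HFD and 167 and 189 in LKO-labelled livers on the HFD, again with no overlap between the diets, and its log2 fold change was -0.40 (SE 0.064, adjusted p = 0.015, limma).

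C8g, the lipocalin-like gamma chain of C8, was measured at 224 and 212 FPKM in f/f-labelled livers on the CD, 217 and 215 in LKO-labelled livers on the CD, 216 and 238 in f/f-labelled livers on the HFD and 198 and 206 in LKO-labelled livers on the HFD. The diets overlapped, and its log2 fold change was 0.06 (95% interval -0.06 to 0.18, adjusted p = 0.49, limma). Without normalization the sign of this fold change turned.

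**Figure D2:**
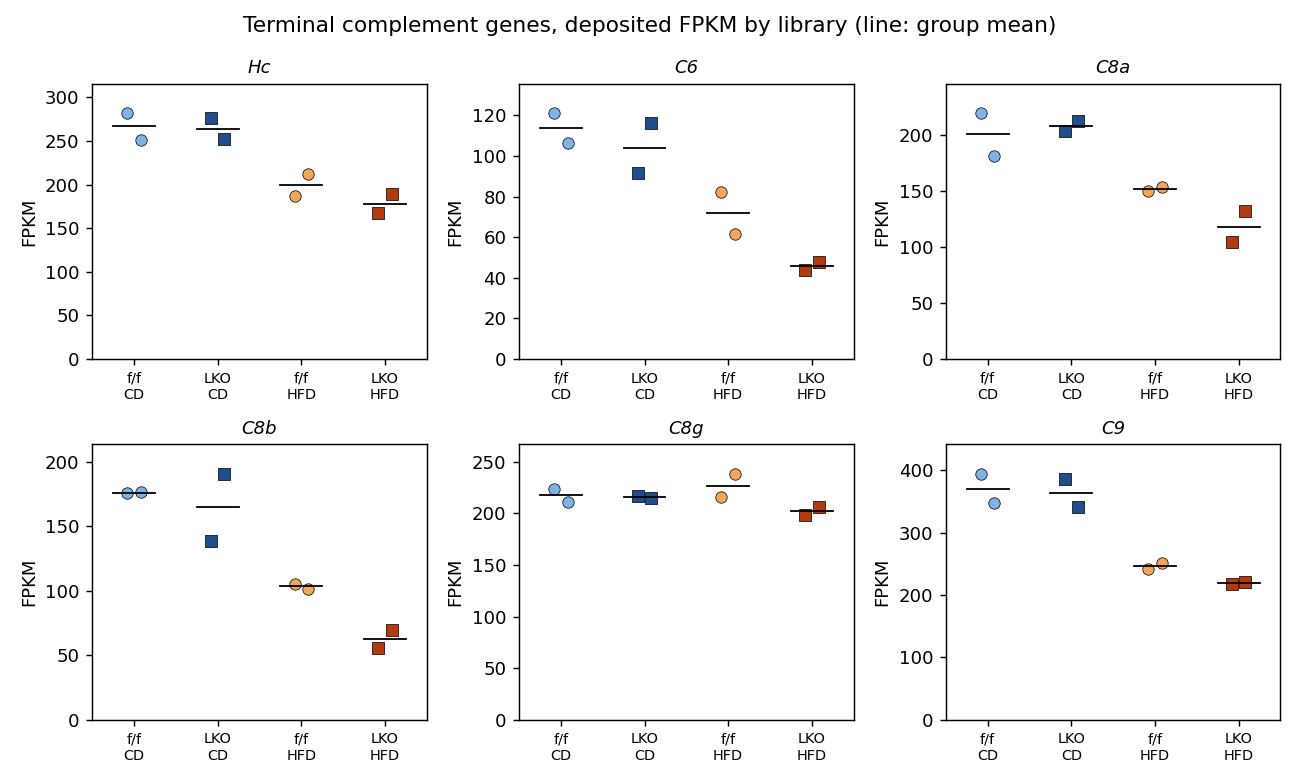
Deposited FPKM of the 6 terminal pathway genes, 1 panel per gene with its own axis from 0, 1 point per library and a line at the mean of each group of 2. In every panel but that of C8g the 4 HFD libraries lie below the 4 CD libraries, and C8g stays between 198 and 238 FPKM.

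Ratios of deposited FPKM within a library do not change when all its values are multiplied by 1 factor. Quantile normalization is not such a scaling, so the size of a ratio difference can change after it. The 4 ratios were formed after the values had been seen, so they are described without a test. C8b over C8g was 0.787 ± 0.107 (SD, n = 4) in the CD libraries and 0.384 ± 0.0921 (SD, n = 4) in the HFD libraries, with ranges of 0.639 to 0.888 and 0.282 to 0.490. C8a over C8g was 0.941 ± 0.0598 and 0.626 ± 0.0720. Neither ratio overlapped between the diets, so the 3 chains of C8 did not keep their proportions at the transcript level.

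The fibrinogen chains showed the same kind of unequal difference. Fga, Fgb and Fgg encode the alpha, beta and gamma chains, and they lie within 1 cluster on chromosome 3, where Fgb is 6513 bases from Fga. Fga over Fgb was 0.582 ± 0.0200 (SD, n = 4) on the CD and 0.486 ± 0.0197 on the HFD. Fga over Fgg was 0.711 ± 0.0306 and 0.607 ± 0.00781. In both ratios the highest HFD library was below the lowest CD library.

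**Figure D3:**
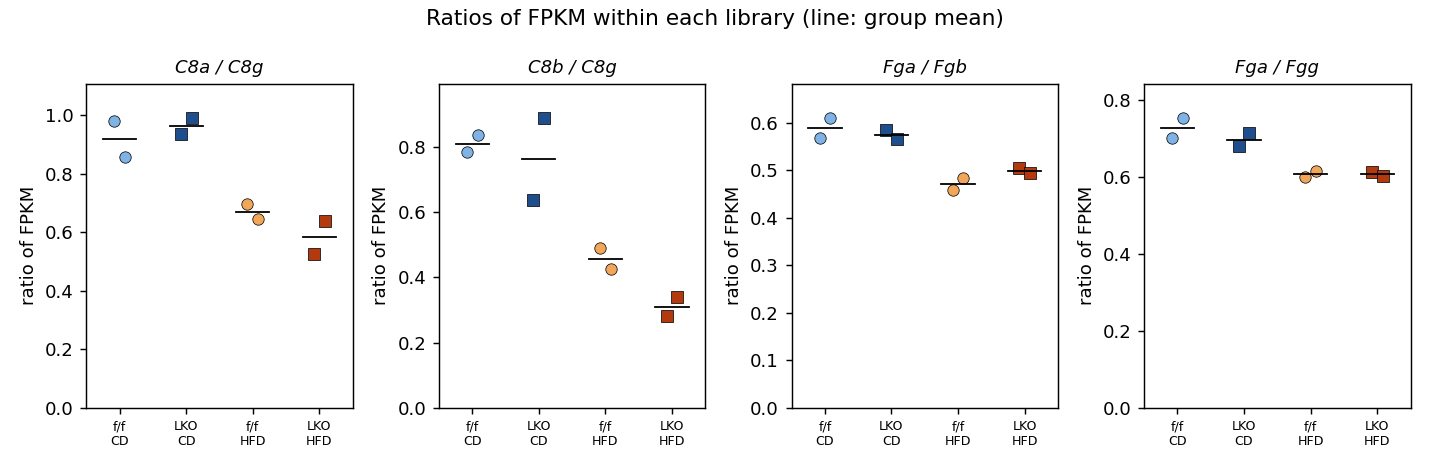
Ratios of deposited FPKM within each library for C8a and C8b over C8g and for Fga over Fgb and Fgg, 1 point per library, lines at the mean of each group of 2 and axes from 0. In all 4 panels the HFD libraries lie below the CD libraries.

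Upstream, the lectin and classical pathway genes showed less. C1ra, the protease that activates C1s in the C1 complex, fell from 125 to 139 FPKM in the 4 CD libraries to 90.6 to 108 in the 4 HFD libraries, a log2 fold change of -0.29 (SE 0.053, adjusted p = 0.022, limma). The other 5 genes of this group did not pass the test. C1s1, its partner protease 6901 bases away on chromosome 6, was at 209 to 219.6 and 183 to 195 FPKM, with a log2 fold change of -0.11 (adjusted p = 0.15, limma). C1s1 overlaps an antisense gene listed at up to 185.6 FPKM, and counting without strand could not tell them apart. Mbl1 and Mbl2, the mannose-binding lectins, had log2 fold changes of -0.01 and -0.09, and their proteases Masp1 and Masp2 of 0.00 and -0.14.

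Among C3, C4 and the convertase components, 0 of 5 genes passed the test (limma), and at an unadjusted p under 0.05 C4b was lower and Cfd higher. C3 was measured at 2229.9 and 1829 FPKM in f/f-labelled livers on the CD, 2451 and 2372 in LKO-labelled livers on the CD, 1908 and 2332 in f/f-labelled livers on the HFD and 1710.5 and 1881 in LKO-labelled livers on the HFD, with overlap between the diets. Its log2 fold change was 0.17 after quantile normalization and -0.18 without normalization, so that its direction depended on the scaling. C4b was at 260.4 to 312 and 199 to 256 FPKM, with a log2 fold change of -0.23 (adjusted p = 0.16, limma), and its reads are uncertain because C4a is a near-identical copy. Cfd was at 0.182 and 0.483, 2.76 and 0.538, 0.488 and 1.87 and 5.45 and 5.29 FPKM in the f/f CD, LKO-labelled CD, f/f HFD and LKO-labelled HFD groups, a log2 fold change of 1.06 (SE 0.32, adjusted p = 0.085, limma). Of 8 adipocyte markers, 5 (Adipoq, Plin1, Lep, Retn and Cidea) were below 1 FPKM in all 8 libraries, and the 8 summed to 17.1 to 27.3 FPKM on the CD and 19.8 to 21.5 on the HFD. Among the 3 that were tested, Fabp4 rose, with 6.45 to 7.78 FPKM on the CD and 8.88 to 10.4 on the HFD, a log2 fold change of 0.37 (adjusted p = 0.033, limma), and Lipe was at 5.53 to 11.8 and 5.68 to 6.46 FPKM, with -0.27 (adjusted p = 0.17). The part of adipocytes in the values of Cfd was not tested.

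C2 and Cfb, which supply the protease subunits of the C3 convertases and lie 85 bases apart on chromosome 17, were both listed at 0 in LKO-labelled CD replicate 2. In the other 7 libraries C2 was at 43.7 and 48.3 FPKM (f/f CD), 42.9 (LKO-labelled CD replicate 1), 27.1 and 33.4 (f/f HFD) and 23.7 and 26.6 (LKO-labelled HFD). Cfb was at 365 and 301, 377, 268 and 306 and 274 and 288 FPKM in the same order. With the 0 taken as a measurement, the log2 fold changes were 0.71 for C2 and 1.93 for Cfb, with adjusted p of 0.71 and 0.49 (limma). With the 0 taken as missing, a choice made after it was seen and which drops that library for these genes, C2 was at -0.65 (SE 0.094, adjusted p = 0.016, limma) and Cfb at -0.19 (adjusted p = 0.21). Without the listed 0, C2 therefore counts among the genes lower on the HFD, which makes 10.

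Of the 3 complement regulators, Serping1, the inhibitor of C1 and of contact proteases, fell. It was measured at 539 and 511 FPKM in f/f-labelled livers on the CD, 579 and 542 in LKO-labelled livers on the CD, 397 and 446 in f/f-labelled livers on the HFD and 408 and 447 in LKO-labelled livers on the HFD, without overlap between the diets, and its log2 fold change was -0.24 (SE 0.054, adjusted p = 0.04, limma). Cfi, factor I, which cleaves C3b and C4b, had a log2 fold change of -0.19 (adjusted p = 0.12), and C4bp, its cofactor for C4b, of -0.21 (adjusted p = 0.09).

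On the coagulation side, the contact system had 0 of 3 genes past the test (limma), and Kng1 alone at an unadjusted p under 0.05. Kng1, kininogen, was at 922 to 1064 FPKM in the CD libraries and 692 to 816 in the HFD libraries, which did not overlap. Its log2 fold change was -0.20 (adjusted p = 0.15) after quantile normalization and -0.42 (adjusted p = 0.017) without normalization, so that its call depended on the scaling. F11 and F12, the zymogens of factors XI and XII, had log2 fold changes of 0.05 and -0.02.

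Prothrombin and the clotting proteases with their cofactor had 0 of 5 genes past the test (limma), with F7 and F10 lower and F9 higher at an unadjusted p under 0.05. F10, factor X, where the 2 arms of the cascade meet, was at 193 to 210.4 FPKM on the CD and 159 to 181 on the HFD, with a log2 fold change of -0.20 (SE 0.05, adjusted p = 0.051). F7, the factor VII gene 1498 bases from F10 on chromosome 8, was at 46.2 to 48.8 and 33.7 to 48.1 FPKM, with a log2 fold change of -0.17 (adjusted p = 0.11). F9, factor IX, was at 95.5 to 108 and 102 to 109 FPKM, with a log2 fold change of 0.14 (adjusted p = 0.14). F2, prothrombin, was at 688 to 757 and 622 to 709 FPKM, with 0.02 after quantile normalization and -0.13 without normalization.

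Fga was the 1 gene of the fibrinogen group that fell. It was measured at 1362 and 1568 FPKM in f/f-labelled livers on the CD, 1646 and 1577 in LKO-labelled livers on the CD, 972 and 1203 in f/f-labelled livers on the HFD and 929.9 and 1093 in LKO-labelled livers on the HFD, without overlap between the diets, and its log2 fold change was -0.38 (SE 0.089, adjusted p = 0.043, limma). Fgb was measured at 2396 and 2572 FPKM in f/f-labelled livers on the CD, 2817 and 2786 in LKO-labelled livers on the CD, 2119.7 and 2481 in f/f-labelled livers on the HFD and 1842 and 2215 in LKO-labelled livers on the HFD. Its log2 fold change was 0.14 after quantile normalization and -0.29 without normalization, and that of Fgg was 0.10 and -0.33, so no direction is given for these chains. F13b, the carrier subunit of the fibrin crosslinker, was at 93.96 to 108 FPKM over all libraries, a log2 fold change of 0.10 (95% interval -0.02 to 0.22).

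Among the anticoagulant genes, Serpinc1 was at 775 to 815 FPKM on the CD and 721 to 769 on the HFD, Serpind1 (heparin cofactor II) at 203 to 236 and 207 to 224, and Proc (protein C) at 232 to 279.6 and 236 to 269. None of the 4 passed the test by limma, and at an unadjusted p under 0.05 only Pros1 was lower, at 24.2 to 27.4 FPKM on the CD and 18.7 to 23.5 on the HFD without overlap and with a log2 fold change of -0.22 (adjusted p = 0.14). Pros1 encodes protein S, the cofactor of activated protein C.

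Of the 3 fibrinolysis genes, Cpb2 fell. It encodes the carboxypeptidase that trims plasminogen binding sites from fibrin, and it was measured at 199 and 201 FPKM in f/f-labelled livers on the CD, 212 and 204 in LKO-labelled livers on the CD, 147 and 169.9 in f/f-labelled livers on the HFD and 148 and 158 in LKO-labelled livers on the HFD, without overlap between the diets, a log2 fold change of -0.31 (SE 0.054, adjusted p = 0.02, limma). Plg, plasminogen, and Serpinf2, the plasmin inhibitor, had log2 fold changes of 0.13 and 0.02 after quantile normalization and -0.04 and -0.11 without it, and neither passed the test. Vtn, vitronectin, was at 879.7 to 1028 FPKM on the CD and 699 to 897 on the HFD, with a log2 fold change of -0.03 (adjusted p = 0.85).

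The scaling mattered for the abundant genes. After quantile normalization 22 of the 40 genes had a log2 fold change below 0 and 18 above, whereas without normalization 34 were below and 6 above, and with each library centred on its median 30 and 10. The median over the 40 was -0.02 after quantile normalization, -0.19 without normalization and -0.17 after median centring, beside 0.01, -0.02 and 0.01 over all genes tested. Without normalization 13 of the 40 genes were called lower and with median centring 11, beside 6.04% and 4.99% of all genes. Both settings kept the 9 and added F10 and Kng1, and the former also C4bp and Cfi. In no setting with all 8 libraries was a gene called higher. When each library was left out in turn, C6, C8b and C9 were called in 8 of 8 fits, Hc in 7, C8a in 5, Cpb2 in 2, C1ra and Fga in 1 each and Serping1 in 0, so the calls of the last 4 were lost in most or all of these fits. The count of lower calls went from 9 to 4 without LKO HFD replicate 1 or f/f HFD replicate 1, where the share of all genes called lower also went from 4.86% to 1.72% and 2.11%. It was 5 without LKO CD replicate 2, LKO HFD replicate 2 or f/f CD replicate 2, beside 2.01%, 1.78% and 1.82% of all genes. Without LKO CD replicate 1 it was 6, beside 3.62%, and C2, Cfb and Cfd were called higher.

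**Figure D4:**
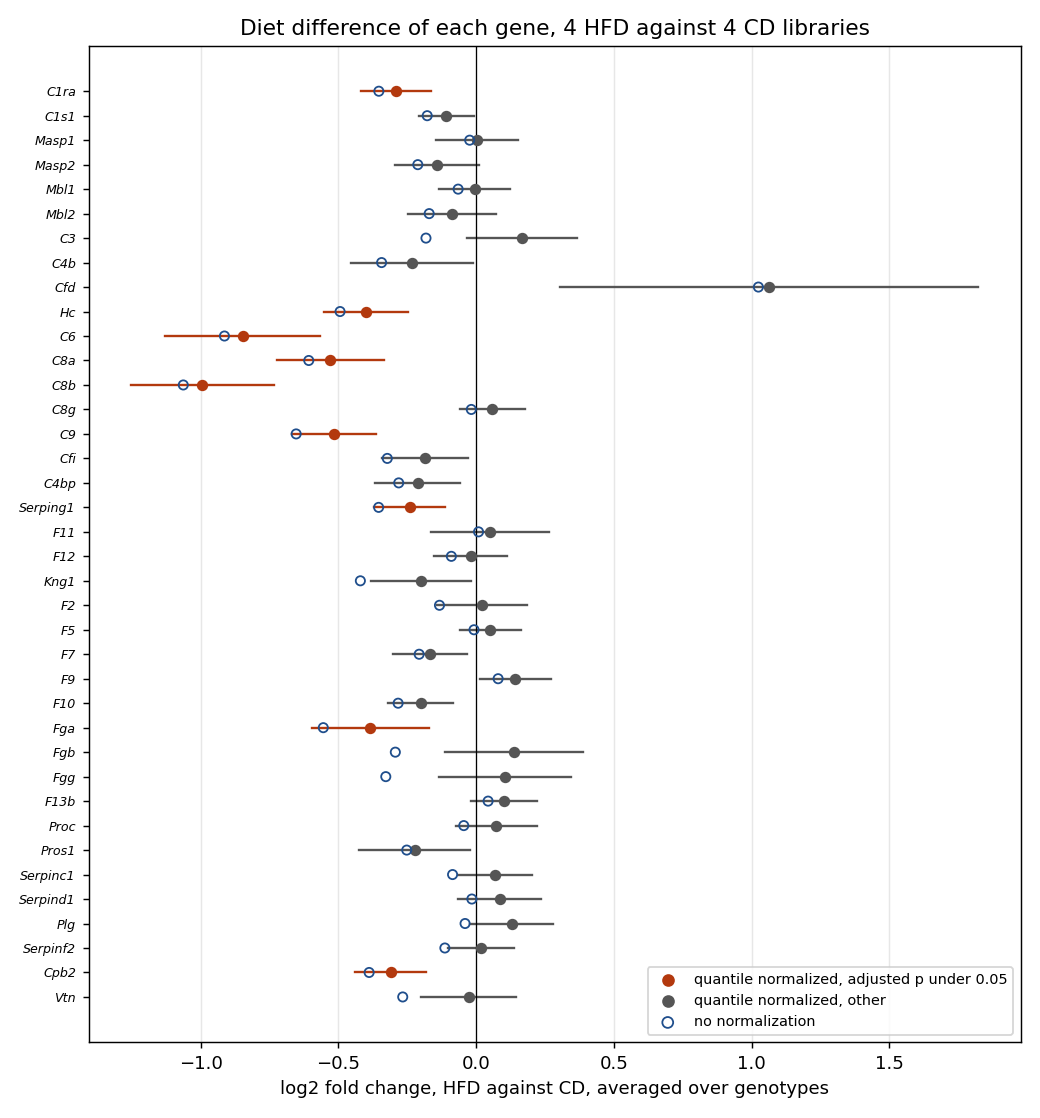
Log2 fold change of HFD against CD averaged over the genotype labels for 38 genes ordered by role, with filled points and 95% intervals after quantile normalization (red where adjusted p is under 0.05, limma, 4 against 4 libraries) and open circles without normalization. C2 and Cfb, listed at 0 in 1 library, are not drawn. The terminal pathway genes other than C8g lie from -0.40 to -0.99. The open circles of 12 genes, C3, Fgb, Fgg and C8g among them, lie on the other side of 0 from the filled ones.

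The same comparison was made under each genotype label, with 2 libraries against 2. These comparisons use the same libraries as the average above and are not independent of it. In the LKO-labelled libraries 4 genes fell on the HFD, beside 1.44% of all genes called lower, and 0 rose, beside 1.57% called higher. They were C8b at -1.28 (SE 0.15, adjusted p = 0.019), C6 at -1.08 (SE 0.17, adjusted p = 0.03), C8a at -0.72 (SE 0.12, adjusted p = 0.032) and C9 at -0.59 (SE 0.09, adjusted p = 0.029), by limma. All belong to the terminal pathway. At an unadjusted p under 0.05, 14 of the 40 were lower, beside 9.69% of all genes, and 3 higher (F5, F9 and Cfd), beside 11.7%. The 4 calls were sensitive to single libraries: 0 genes were called without LKO CD replicate 2, LKO HFD replicate 1, LKO HFD replicate 2 or f/f CD replicate 2, 1 (C8b) without f/f CD replicate 1, 2 (C6 and C8b) without either f/f HFD replicate, and without LKO CD replicate 1 the calls were C8b, lower, with C2 and Cfb, which were then compared with the listed 0 alone. The share of all genes called lower in these fits was 0.0604% to 0.605%. A fit of the 4 libraries alone called 0 of the 40 and 0 of all genes tested.

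In the f/f-labelled libraries 0 of the 40 genes passed the adjusted threshold, beside 1.33% of all genes (limma), and at an unadjusted p under 0.05 there were 9 lower and 2 higher (F11 and Plg), beside 9.22% and 9.94%. The 9 were the same genes as the 9 that fell over both labels. Their log2 fold changes in the f/f-labelled libraries were -0.71 for C8b (adjusted p = 0.079), -0.62 for C6 (0.12), -0.44 for C9 (0.072), -0.37 for Hc (0.11) and -0.33 for C8a (0.19), each an adjusted p from limma. For Fga, Cpb2, Serping1 and C1ra they were -0.34, -0.28, -0.24 and -0.21. That a gene passed under 1 label and not under the other does not show a difference between them, and that difference is what the interaction of genotype and diet tests.

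The genotype comparison asked whether the genes differed between LKO-labelled and f/f-labelled livers. On the CD, 0 of the 40 genes passed the adjusted threshold (limma), beside 0.0172% of all genes, and 1 had an unadjusted p under 0.05, beside 12.3%. That was Mbl1, the mannose-binding lectin A gene, at 110.1 and 106 FPKM in the f/f-labelled and 118 and 131 in the LKO-labelled libraries, a log2 fold change of 0.19 (SE 0.077, adjusted p = 0.37). The median log2 fold change over the 40 was 0.04, beside 0.00 over all genes. Leaving out LKO CD replicate 1 brought C2 and Cfb past the threshold, with the listed 0 as the remaining LKO-labelled value.

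On the HFD, 0 of the 40 genes passed the adjusted threshold (limma), beside 0.043% of all genes, and 6 had an unadjusted p under 0.05, which is 15%, beside 9.58%. Lower in the LKO-labelled libraries were C8b, C6, F11, C8a and F7, and higher was Cfd. C8b was at 106 and 102 FPKM in the f/f-labelled and 55.8 and 69.8 in the LKO-labelled libraries, a log2 fold change of -0.68 (SE 0.15, adjusted p = 0.25). C6 was at 82.1 and 61.6 and 43.97 and 47.6 FPKM, with -0.61 (SE 0.17, adjusted p = 0.33). C8a was at 150.0 and 153 and 104 and 132 FPKM, with -0.34 (SE 0.12, adjusted p = 0.43). The groups did not overlap for these terminal pathway genes, but 20.8% of all genes had the LKO-labelled pair below the f/f-labelled pair on the HFD.

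F11, the factor XI gene, was at 45.5 and 37.1 FPKM in the f/f-labelled and 25.2 and 27.8 in the LKO-labelled HFD libraries, a log2 fold change of -0.60 (SE 0.13, adjusted p = 0.24, limma). F7 was at 45.1 and 48.1 and 33.7 and 40.04 FPKM, with -0.31 (SE 0.08, adjusted p = 0.31). Cfd was at 0.488 and 1.87 and 5.45 and 5.29 FPKM, with 1.63 (SE 0.45, adjusted p = 0.33). The median over the 40 was -0.02, beside 0.00 over all genes, and -0.10 without normalization. In the same comparison all 8 Kupffer cell and macrophage markers had a log2 fold change above 0, beside 49.1% of all genes, with a median of 0.39. Of them 3 (Clec4f, Cd68 and Timd4) had an unadjusted p under 0.05, beside 9.58% of all genes in either direction. None passed the adjusted threshold (limma). Also above 0 were 7 of 8 stellate cell, 4 of 8 endothelial and 5 of 8 hepatocyte markers, the last with the listed zeros of Alb. The part of these cell types in the differences was not tested.

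Averaged over the diets, 0 of the 40 genes differed between the genotype labels at the adjusted threshold (limma), beside 0.103% of all genes, and 5 had an unadjusted p under 0.05, beside 13.5%. They were C8b (-0.40), C6 (-0.38) and F11 (-0.34), lower in the LKO-labelled libraries, and Mbl1 (0.16) and Cfd (1.27), higher, with adjusted p from 0.17 to 0.28.

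The interaction of genotype and diet tested whether the genotype difference was unequal between the diets. None of the 40 genes passed the adjusted threshold (limma), beside 0.0344% of all genes, and 4 had an unadjusted p under 0.05, beside 8.35%. They were C8b (-0.56, 95% interval -1.08 to -0.05), F11 (-0.52, -0.95 to -0.09), F7 (-0.37, -0.64 to -0.10) and F5 (0.26, 0.04 to 0.48), and their adjusted p was 0.56 to 0.58. With 2 libraries a group these intervals are wide, and for C8b the interval spans from near 0 to a difference larger than its fall on the HFD over both labels.

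**Figure D5:**
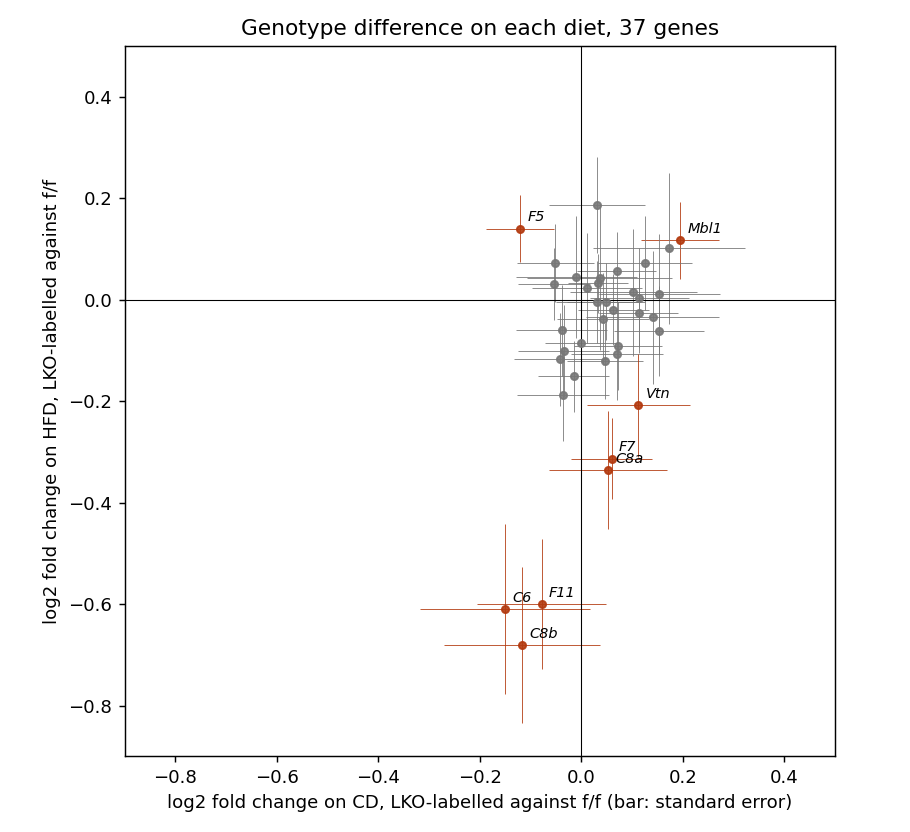
Log2 fold change between the genotype labels, LKO over f/f, on the CD (x axis) and on the HFD (y axis) for 37 genes, quantile normalized, with standard errors from the fit and 2 libraries per group. C8b, C6 and F11 lie between -0.60 and -0.68 on the HFD axis and between -0.08 and -0.15 on the CD axis, and no gene passed the adjusted threshold on either axis. C2 and Cfb (listed at 0 in 1 library) and Cfd (low and variable) are not drawn.

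Genes of the same pathways outside the 41 were read from lists chosen by name with earlier results of these data known. Over both labels 5.04% of all genes tested were called higher on the HFD and 4.86% lower. Of 20 further complement genes tested on the diets over both labels, 2 rose, Colec10 and Colec11, and 1 fell, C4a (limma). Colec10 and Colec11, collectins of the lectin pathway, had log2 fold changes of 0.59 (adjusted p = 0.024) and 0.52 (adjusted p = 0.037), and C4a, whose reads are uncertain beside C4b, had -0.70 (adjusted p = 0.047). Of 15 further coagulation and fibrinolysis genes tested, 1 rose, Tfpi, the inhibitor of the tissue factor pathway, at 0.38 (adjusted p = 0.029). In that list 2 fell, Serpina10, which inhibits factor X with protein Z, at -0.47 (adjusted p = 0.042), and Lman1, a cargo receptor for factors V and VIII, at -0.34 (adjusted p = 0.026). Of the 5 vitamin K cycle genes, whose products carboxylate F2, F7, F9, F10, Proc and Pros1, 0 passed the test (limma), and Ggcx and Vkorc1l1 were lower at an unadjusted p under 0.05.

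Of 14 acute phase genes outside the 41, 6 fell on the HFD and 0 rose (limma), beside 4.86% and 5.04% of all genes. Their median log2 fold change was -0.38. Saa1, serum amyloid A1, was at 473 and 299.9 and 725 and 726 FPKM on the CD and 41.2 and 127 and 38.9 and 61.97 on the HFD (f/f-labelled and LKO-labelled in turn), a log2 fold change of -3.02 (adjusted p = 0.0071). The others were Saa2 (-3.19), Orm2 (-1.73), Hamp (-1.62), Orm1 (-0.83) and Hpx (-0.43). Of 12 abundant secreted proteins of hepatocytes, 4 (Ttr, Apoh, Serpina1b and Gc) were called higher after quantile normalization (limma) and 0 lower, but Gc, for example, was at 3029 to 3279 FPKM on the CD and 2649 to 2892 on the HFD, so that its direction depended on the scaling. The FPKM of Apoh (1212 to 1357 and 1324 to 1545), Ttr and Serpina1b overlapped between the diets.

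Markers of other cell types were read beside these results. Over both labels 52.7% of all genes tested had a log2 fold change above 0 on the HFD, 5.04% were called higher and 4.86% lower. Stellate cell markers summed to 44.6 to 69.9 FPKM in the CD libraries and 78.6 to 107 in the HFD libraries, without overlap. Most of that sum was Dcn, at 26.4 to 45.3 and 52.5 to 72.2 FPKM. Of the 8 markers, 6 had a log2 fold change above 0 and 3 rose (Reln, Dcn and Colec11, the last also counted above). Col1a1 (0.548 to 1.08 and 0.570 to 0.921 FPKM) and Col3a1 (1.53 to 2.82 and 1.47 to 2.57) did not rise. Endothelial markers summed to 52.0 to 65.9 on the CD and 61.5 to 77.9 on the HFD, all 8 had a log2 fold change above 0 and 1, Lyve1, rose (0.76, adjusted p = 0.021, limma). Kupffer cell and macrophage markers summed to 79.9 to 108 on the CD and 63.9 to 111 on the HFD, and over both labels none of the 8 passed the test (limma; Timd4 alone had an unadjusted p under 0.05). Their direction was not the same under both labels. In f/f-labelled libraries 0 of the 8 had a log2 fold change above 0, beside 52.1% of all genes. In LKO-labelled libraries it was 8 of 8, beside 51.4%. Of the 8, 0 passed the interaction test and 3 had an unadjusted p under 0.05 in it, beside 8.35% of all genes. The part of these cells in the lower levels of the 9 genes was not tested. The 7 hepatocyte markers other than Alb summed to 15550 to 16892 on the CD and 15909 to 17440 on the HFD, but single markers moved in opposite directions. After quantile normalization 4 were called higher (Ttr, Apob, Hnf4a and Cyp2e1) and 1 lower, Tat (limma). Cyp2e1 was at 3875 to 4680.2 FPKM on the CD and 5512 to 6770.1 on the HFD, and Tat at 480.4 to 1036 and 250.4 to 322, neither with overlap. Cps1, lower only at an unadjusted p under 0.05 (limma), was at 668.9 to 793 and 454.8 to 665.9, also without overlap. The FPKM of Apob (788.8 to 851 and 819 to 862) and Hnf4a (102 to 119 and 110 to 139.5) overlapped between the diets.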

How the data were processed

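Polyadenylated RNA of mouse liver pools was sequenced in 8 libraries, 2 in each of 4 groups. Per the labels and the study's methods, the authors removed adapters with cutadapt 1.0, trimmed reads at a PHRED quality of 20, aligned them to GRCm38 with TopHat2 2.0.7 and estimated expression with Cufflinks, whose version is not given in the sources used here. The deposited values are FPKM per gene, not on a log scale, so count tests were not run and the depth of a library is not known from them. Symbols and coordinates were taken from GENCODE M21 by identifier, which matched 36341 of the 38283 genes.

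Only genes that exceeded an FPKM of 1 in some library entered the fit (11634), and log2(FPKM + 1) values were quantile normalized, following the study's methods; fold changes are on the log2(FPKM + 1) scale, which understates those of low genes. One limma 3.58.1 fit (R 4.3.3) of the 4 group means with a mean-variance trend gave 7 comparisons, each adjusted by the Benjamini-Hochberg method over all genes tested, with 4 residual and 2.8 prior degrees of freedom. A gene is called at an adjusted p under 0.05. The study's own permutation procedure was not used. P-values measure the spread between pools. The fit was tested on simulated data. Figures used matplotlib 3.10.9 and Python 3.11.15.

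The 41 genes and all gene lists were chosen with earlier results of these data known. Full statistics were planned for genes with an unadjusted p under 0.05 or a log2 fold change of at least 0.5 either way, at most the 10 largest in a comparison; C1ra, Serping1 and the other genes outside this rule were named by their role after their values were seen. Alternatives were no normalization, median centring, adding 0.1 in place of 1, requiring FPKM above 1 in every library or only above 0 in any, a replicate block, no trend, a fit of the compared groups alone, each library left out, and a single 0 taken as missing (16 values over all genes). Promoter sequences are RefSeq's on GRCm38.p6.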

Additional observations from a re-analysis of the deposited data

Results flagged for a closer look

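On the normalized scale, in 4 genes the libraries of one stratum all moved one way and those of the other the opposite way, and the interaction of genotype and diet, which tests that difference, passed the adjusted threshold (limma) for none of them. F11 was at 37.7 and 30.3 FPKM on the CD and 45.5 and 37.1 on the HFD in f/f-labelled libraries, and at 30.7 and 33.02 and 25.2 and 27.8 in LKO-labelled libraries, where the direction turned. Its FPKM overlapped between the diets in f/f-labelled libraries, and the separation there is that of the normalized values. The difference of the 2 diet effects was -0.52 on the log2 scale (adjusted p = 0.56). F5, the cofactor of factor X, was lower in LKO-labelled than in f/f-labelled libraries on the CD (107 and 99.7 against 111 and 109 FPKM) and higher on the HFD (108 and 112 against 98.6 and 105). Its difference was 0.26, the same number whether read as genotype effects or as diet effects (adjusted p = 0.57). F7 was at 48.8 and 48.1 FPKM in LKO-labelled and 48.6 and 46.2 in f/f-labelled libraries on the CD and at 33.7 and 40.04 and 45.1 and 48.1 on the HFD, where its normalized values were apart in opposite directions, with a difference of -0.37 (adjusted p = 0.56). Vtn had a difference of -0.32 (adjusted p = 0.63, limma), with LKO-labelled libraries at 699 and 768 FPKM against 872 and 897 on the HFD. On the CD they were at 1028 and 965 against 1007 and 880 FPKM. These CD values overlapped, and the separation there is that of the normalized values.

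Such turns were about as frequent among all genes: 3 of the 40 genes (7.5%) turned between the diets against 6.7% of all genes, and 2 (5%) between the genotype labels against 5.22%. Groups of 2 libraries are too small for a test of single outlying libraries.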

How the results depend on the processing

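The genes called over both genotype labels, all lower on the HFD, numbered 9, beside 4.86% of all genes called lower. They became 13 without normalization (6.04%), 11 with median centring (4.99%) and 9 with a pseudocount of 0.1 (4.96%). They were 10 with FPKM above 1 in all 8 libraries (6.27%) and 7 with FPKM above 0 in at least 1 library (1.73%). They were 7 without a mean-variance trend (3.91%) and 10 with a single 0 taken as missing (4.89%), a setting chosen after the data were seen. When each library was left out, 4 to 9 genes were called, of which 4 to 6 were lower: without LKO CD replicate 1 the 9 were 6 lower and C2, Cfb and Cfd higher. In LKO-labelled libraries the 4 calls became 7 without normalization, 8 with FPKM above 1 in all 8 libraries, 1 with FPKM above 0 in at least 1 (beside 2.05%, 2.94% and 0.293% of all genes called lower, against 1.44%), 0 in a fit of the 4 libraries alone, which called 0 of all genes, and 0 to 3 with a library left out. In f/f-labelled libraries 0 became 1 without normalization, with median centring and with FPKM above 1 in all 8 libraries. The share of all genes called lower was then 0.937%, 0.774% and 1.84%, against 0.705%. Leaving out a library gave 0 to 2 calls between genotypes on the CD, over both diets and for the interaction, and 0 on the HFD. The median log2 fold change of HFD against CD over both labels was -0.19 without normalization, -0.17 with median centring, -0.088 with FPKM above 1 in all 8 libraries, -0.10 with a single 0 missing and -0.098 to 0.00027 with a library left out. In f/f-labelled libraries it was -0.15 without normalization and -0.11 to -0.0077 with a library left out. In LKO-labelled libraries it was -0.27, -0.24, -0.18 and -0.18 under those same 4 settings and -0.17 to -0.10 with a library left out. Between genotypes on the HFD it was -0.10 without normalization, -0.090 with median centring and -0.097 to 0.024 with a library left out, and for the interaction -0.15, -0.14 and -0.14 to -0.012. The cause of these shifts was not tested.

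C2 and Cfb reversed with the 1 listed 0 taken as missing: Cfb was at 0.15 between genotypes on the CD, 0.085 over both diets, -0.25 in LKO-labelled libraries, -0.13 for the interaction and -0.19 over both labels, and C2 at -0.74, -0.18 and -0.65 in the last 3. With a library left out, Cfb ranged from -8.31 to 0.15, -4.15 to 0.082, -0.25 to 8.21, -0.13 to 8.33 and -0.19 to 4.05 in that order, and C2 from -0.74 to 4.73, -0.18 to 5.29 and -0.65 to 2.08. For the 77 results of single genes with an unadjusted p under 0.05 or a log2 fold change of at least 0.5 either way, 1256 values were computed under alternatives, of which 1139 kept direction and side of the threshold, 72 lost the threshold, 29 crossed it and 16, all of C2 and Cfb, reversed. Smaller differences turned more often: over both labels, 12 of the 40 genes changed sign between the diets without normalization and 8 with median centring, C3, Fgb and Fgg among them.

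Replicate numbers come from the labels and mark different animals. Deviations of libraries with the same number correlated at -0.00 to 0.15 over all genes in 6 pairs of groups, not all above 0.1, so the numbers were not taken as a pairing. Blocking on the replicate number, 8 genes were called over both labels (Serping1 was lost) and 2 in LKO-labelled libraries (C6 and C8a were lost). No other call changed. The share of all genes called lower also went from 4.86% to 3.82% over both labels and from 1.44% to 0.903% in LKO-labelled libraries. Every value rests on 2 pooled libraries a group, depth is unknown from FPKM, and low genes such as Cfd have the least precision.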
